A study of Homo sapiens with 6 samples.

Results

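The genes described here are 10 genes of the heat shock response, namely the 2 cytosolic HSP90 genes HSP90AA1 and HSP90AB1, the HSP110 gene HSPH1, the mitochondrial chaperonin genes HSPD1 and HSPE1, the small heat shock genes HSPB1, HSPB8 and CRYAB, the co-chaperone gene BAG3 and the transcription factor gene HSF1. They were chosen by gene symbol, with earlier results of these data known. All 10 were found among the 23228 genes of the count tables and passed the filter on low counts. Their mRNA was measured by RNA-seq in HEC-1-A, an established line from a human endometrial adenocarcinoma, kept in McCoy's 5A medium and fetal bovine serum. SMIP34, an inhibitor of the protein PELP1, was given at 20 µM for 24 h to 3 samples, and 3 control samples had no SMIP34. The controls are described as vehicle in the methods and by their medium only in the labels. The labels number the 3 samples of a group as replicates without saying that they were separate cultures, so p-values measure the spread between these samples, which may be technical, and all samples are of 1 line at 1 dose and 1 time.

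Heat shock proteins are chaperones that bind unfolded proteins. HSP90 folds and stabilises signalling proteins and receptors, the small heat shock proteins hold unfolded proteins without using ATP, and HSPD1 and HSPE1 form the folding chamber of mitochondria. Genes of this family are switched on together by HSF1, a factor that chaperones keep inactive in unstressed cells and that binds heat shock elements, which are inverted repeats of a short unit read as GAA or TTC.

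The stretches that match such an element are shown first, because such elements are what HSF1 is known to bind. The 250 bases before the start of each gene's MANE Select transcript (GENCODE release 44 on GRCh37, the genome that hg19 is also built on) were searched on both strands for 3 units, GAANNTTCNNGAA or TTCNNGAANNTTC, and for 2 units, GAANNTTC or TTCNNGAA, of which the shorter forms lie inside the longer ones. A match of 3 units was found for 4 of the 10 genes, HSP90AA1, HSPH1, HSPD1 and CRYAB, against 34 (0.312%) of the 10913 promoters of genes tested. A further 2 genes, HSPB1 and HSPB8, had a match of 2 units only, a form held by 861 (7.89%) of those promoters. HSP90AB1, HSPE1, BAG3 and HSF1 had neither form in this window, which says only that these letters are not there. Each stretch below is written 5′ to 3′ on the gene's own strand with the match in capitals. All but that of HSPB1 lie within an exon of some transcript in GENCODE or in the annotation used for counting, and are shown at shorter length.
HSP90AA1 (chr14:102553449-102553477, minus strand, 88 bases before the start): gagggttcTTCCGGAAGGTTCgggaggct
HSPH1 (chr13:31736080-31736108, minus strand, 59 bases before the start): gccgcagaTTCTGGAAAGTTCtgatcagt
HSPD1 (chr2:198364786-198364814, minus strand, 245 bases before the start): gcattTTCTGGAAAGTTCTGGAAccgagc
CRYAB (chr11:111782527-111782555, minus strand, 53 bases before the start): catcaccaTTCCAGAAGCTTCacaagact
HSPB1 (chr7:75931788-75931835, plus strand, 182 bases before the start): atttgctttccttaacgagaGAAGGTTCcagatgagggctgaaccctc
HSPB8 (chr12:119616637-119616666, plus strand, 88 bases before the start): tcatcacctccGAATATTCctgtgacagga
HSPD1 holds 2 overlapping matches of 3 units, and HSP90AA1 and HSPH1 each hold a separate match of 2 units, at 68 and 139 bases before the start. HSPD1 and HSPE1 are transcribed away from each other, and the match before HSPD1 lies 294 bases before the MANE start of HSPE1, outside the window searched for that gene.

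**Figure D1:**
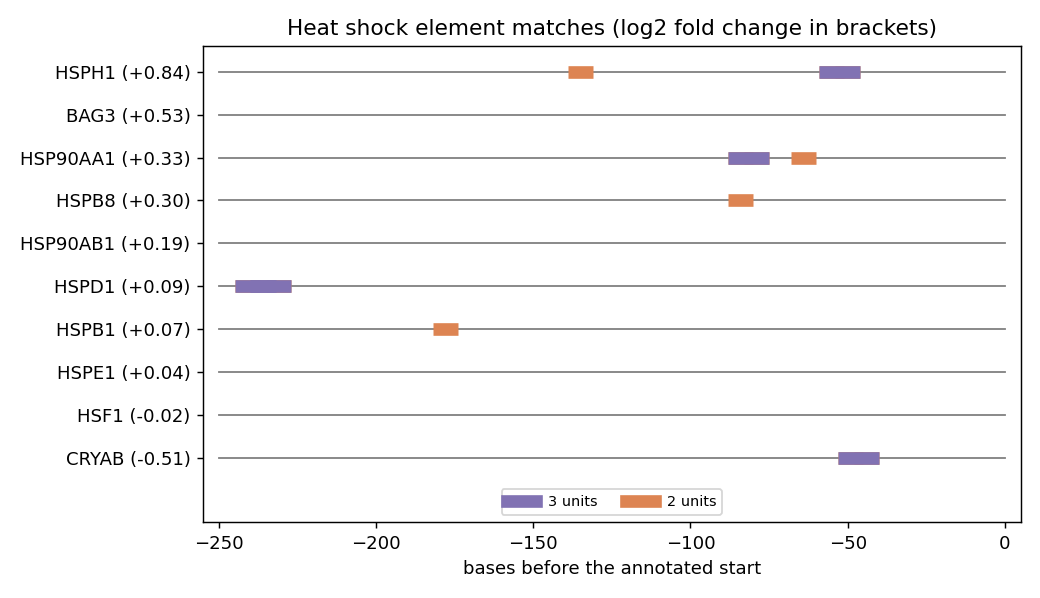
Position of heat shock element matches in the 250 bases before the start of each of the 10 genes, with the x axis in bases before the annotated start, genes ordered by log2 fold change (in brackets) and bars coloured for 3 or 2 units. Genes with a 3-unit match stand at the top (HSPH1, 0.84) and at the bottom (CRYAB, -0.51), and BAG3 (0.53) has no match.

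Of the 10 genes, 5 were higher with SMIP34 and 1 was lower. A call is an adjusted p under 0.05 in edgeR's quasi-likelihood test, where the Benjamini-Hochberg adjustment ran over 13408 genes, and each adjusted p below that names edgeR comes from it. Over all genes tested, 17.4% were higher and 17.2% were lower by the same rule, 34.6% in either direction. Because the 10 genes were chosen with earlier results known, setting them beside all genes is a description and not a test. The median log2 fold change of the 10 genes was 0.14, against -0.0022 over all genes tested. HSPH1, BAG3 and CRYAB also passed an absolute log2 fold change of 0.5, a limit which 3.31% of genes passed, 1.44% higher and 1.87% lower. The 3 SMIP34 libraries all lay above the 3 controls for 6 of the 10 genes and all below them for 1, where 22.6% and 21.9% of genes tested had such separation. Total counts on genes were between 19562711 and 22014835 per library, and values are given as CPM, counts relative to the library total scaled by edgeR's TMM factors, unless stated otherwise. In such bulk samples, fewer cells and less RNA per cell cannot be told apart. Means are followed by ± SD over the 3 libraries of a group (n = 3).

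**Figure D2:**
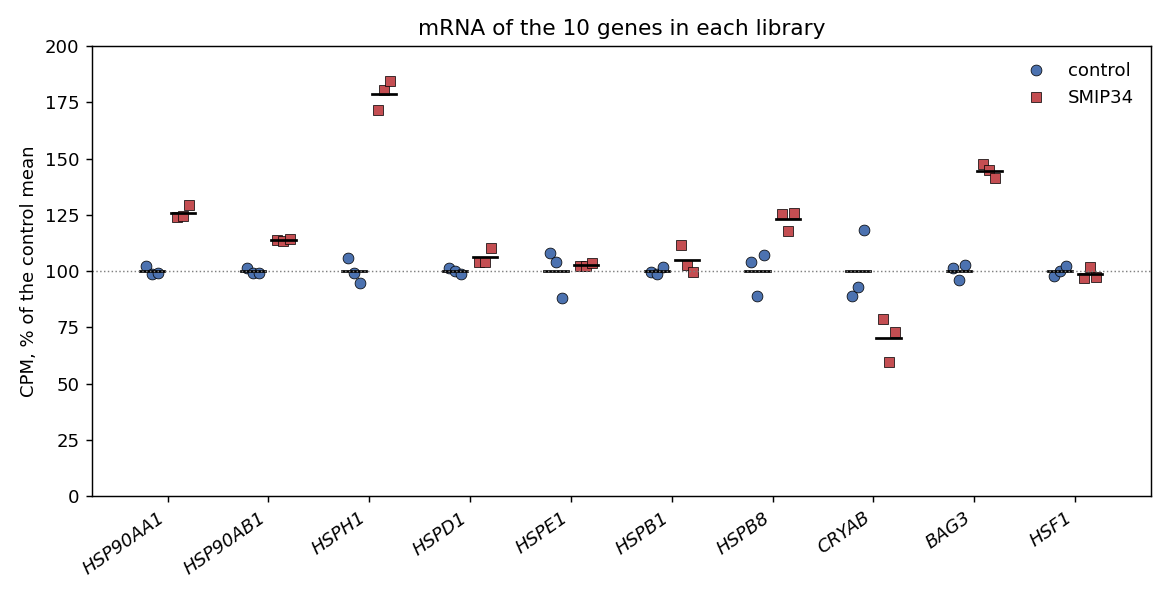
CPM of each of the 10 genes in each library as a percentage of that gene's control mean, with circles for the 3 control libraries, squares for the 3 SMIP34 libraries and a line at each group mean. The SMIP34 libraries of HSPH1 and BAG3 lie furthest above the controls, those of CRYAB lie below them, and those of HSPE1, HSPB1 and HSF1 overlap them.

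HSPH1 on chromosome 13 (hg19, 31710763 to 31736117, minus strand) encodes HSP110, a large relative of HSP70 that helps HSP70 release ADP and keeps aggregated proteins soluble. It was at 33.9, 31.7 and 30.3 CPM in control replicates 1, 2 and 3 and at 54.9, 57.7 and 58.9 CPM in SMIP34 replicates 1, 2 and 3. The groups were far apart, and this was the largest change of the 10 genes. The means were 32.0 ± 1.80 and 57.2 ± 2.08 CPM, a difference of 0.84 on the log2 scale (standard error, SE, 0.050, edgeR adjusted p = 6.77e-13), or 1.79-fold. HSPH1 ranked 91 from the top among the log2 fold changes of all genes tested.

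BAG3 on chromosome 10 (hg19, 121410882 to 121437329, plus strand) encodes a co-chaperone that ties HSP70 to small heat shock proteins and directs damaged proteins to autophagy. It was at 34.4, 32.6 and 34.9 CPM in control replicates 1, 2 and 3 and at 50.0, 49.2 and 47.9 CPM in SMIP34 replicates 1, 2 and 3. The groups did not overlap, and the libraries of each group lay close together. The means were 33.9 ± 1.24 and 49.1 ± 1.06 CPM, a difference of 0.53 on the log2 scale (SE 0.049, edgeR adjusted p = 3e-09), or 1.45-fold.

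HSP90AA1 on chromosome 14 (102547075 to 102606086, minus strand) encodes the stress-inducible form of cytosolic HSP90, and HSP90AB1 on chromosome 6 (44214849 to 44221614, plus strand) the form that cells make constantly. HSP90AA1 was at 1600, 1547 and 1553 CPM in control replicates 1, 2 and 3 and at 1944, 1949 and 2023.5 CPM in SMIP34 replicates 1, 2 and 3. HSP90AB1 was at 1711, 1674 and 1671 CPM in the controls and at 1917, 1907 and 1924 CPM with SMIP34. Both genes rose without overlap between the groups. The log2 fold change was 0.33 for HSP90AA1 (SE 0.026, edgeR adjusted p = 1.01e-10) and 0.19 for HSP90AB1 (SE 0.024, edgeR adjusted p = 1.17e-06), increases of 25.9% and 13.7%. Within a library, the ratio of HSP90AA1 to HSP90AB1 per exon length was 0.582, 0.576 and 0.579 in control replicates 1, 2 and 3 and 0.632, 0.637 and 0.655 in SMIP34 replicates 1, 2 and 3. The ratio was thus higher in each SMIP34 library than in each control, a difference of 0.15 on the log2 scale (two-sided exact permutation test, p = 0.10, which is the smallest p that 3 libraries against 3 can give).

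Of the HSP90 copies in the annotation, HSP90AB3P had between 133 and 182 counts in each library and HSP90AB2P, HSP90AB4P, HSP90AA4P and HSP90AA6P had at most 5. Relative to HSP90AB1 per exon length, HSP90AB3P stood at 0.0056 ± 0.00033 in controls and 0.0057 ± 0.00044 with SMIP34, and the groups overlapped. Reads that fit several places were deposited as fractions, and the values of HSP90AA1 were not whole numbers in 4 libraries and those of HSP90AB1 in 3, so their counts include such fractions.

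HSPD1 and HSPE1 lie head to head on chromosome 2 (198351308 to 198364998 on the minus strand and 198364721 to 198368187 on the plus strand of hg19) and encode the ring and the lid of the mitochondrial chaperonin. HSPD1 was at 774, 764 and 755 CPM in control replicates 1, 2 and 3 and at 797, 794 and 842 CPM in SMIP34 replicates 1, 2 and 3. HSPE1 was at 244, 235 and 199 CPM in the controls and at 231, 231 and 234 CPM with SMIP34. The SMIP34 libraries of HSPD1 lay just above the controls, replicate 3 the furthest, while those of HSPE1 lay inside the range of the controls, whose replicate 3 was low. HSPD1 had a log2 fold change of 0.085 (SE 0.027, edgeR adjusted p = 0.0147), or 6.07%, which was 0.058 without SMIP34 replicate 3 and no longer passed (edgeR adjusted p = 0.161). HSPE1 had a log2 fold change of 0.038 (95% interval -0.054 to 0.13, edgeR adjusted p = 0.556), and it turned to -0.045 without control replicate 3.

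Exons of HSPD1 and HSPE1 share 115 bases on opposite strands, and reads were counted by strand. HSPE1 also shares 608 of its 953 exon bases with HSPE1-PHOCN, a readthrough gene on the same strand, which had between 4538 and 5618 counts per library against 4131 to 5107 for HSPE1. Its counts exceeded those of HSPE1 in each library. Because of the shared bases, the values of HSPE1 and HSPE1-PHOCN may not be independent. Over 284 genes nested in another gene on the same strand, 9.76% of the values of at least 20 were whole reads plus 0.5, against 6.24% in other genes. These shares do not settle how reads over shared bases were counted. The ratio of HSPD1 to HSPE1 per exon length was 1.33 ± 0.134 in controls and 1.37 ± 0.036 with SMIP34, with overlapping groups (two-sided exact permutation test, p = 0.6, smallest possible 0.10).

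Of the 3 small heat shock genes, CRYAB passed the test, and with gene length offsets HSPB1 passed in its place (0.17, edgeR adjusted p = 0.00438). CRYAB on chromosome 11 (111779350 to 111782473, minus strand), the gene of alpha B crystallin, was at 3.66, 3.82 and 4.86 CPM in control replicates 1, 2 and 3 and at 3.24, 2.45 and 3.00 CPM in SMIP34 replicates 1, 2 and 3. Each SMIP34 library lay below each control, with a narrow gap between SMIP34 replicate 1 and control replicate 1. CRYAB was the member that fell, with a log2 fold change of -0.51 (SE 0.17, edgeR adjusted p = 0.0219), to 0.705 of the control level. Its counts were only 53 to 101 per library, and the call was lost without control replicate 3 (-0.37, edgeR adjusted p = 0.135), without SMIP34 replicate 2 (-0.40, edgeR adjusted p = 0.116), with DESeq2 (DESeq2 adjusted p = 0.0631) and with gene length offsets (-0.38, edgeR adjusted p = 0.099).

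HSPB8 on chromosome 12 (119616595 to 119632551, plus strand), whose protein works with BAG3, was at 3.55, 3.04 and 3.66 CPM in control replicates 1, 2 and 3 and at 4.28, 4.02 and 4.30 CPM in SMIP34 replicates 1, 2 and 3. The SMIP34 libraries were all above the controls, on 66 to 94 counts per library, but the difference did not pass the test, with a log2 fold change of 0.30 (95% interval -0.011 to 0.62, edgeR adjusted p = 0.128). The interval spans both no difference and a change as large as that of BAG3. HSPB1 on chromosome 7 (75931875 to 75933614, plus strand), the gene of HSP27, was the abundant one of the small heat shock genes, at 57.5, 56.9 and 58.6 CPM in control replicates 1, 2 and 3 and at 64.5, 59.3 and 57.4 CPM in SMIP34 replicates 1, 2 and 3. SMIP34 replicates 1 and 2 stood above the controls, replicate 2 only just, and replicate 3 within them. The log2 fold change was 0.067 (95% interval -0.026 to 0.16, edgeR adjusted p = 0.269). Within a library, the ratio of HSPB8 to CRYAB per exon length was 0.290 ± 0.040 in controls and 0.506 ± 0.056 with SMIP34, without overlap (two-sided exact permutation test, p = 0.10, the smallest possible).

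HSF1 on chromosome 8 (145515270 to 145538385, plus strand), the factor that drives the heat shock genes and is itself controlled largely at the protein level, was at 133, 136 and 139 CPM in control replicates 1, 2 and 3 and at 131, 138 and 132 CPM in SMIP34 replicates 1, 2 and 3. The groups overlapped, and the log2 fold change was -0.022 (95% interval -0.089 to 0.046, edgeR adjusted p = 0.656). The interval spans small differences in both directions, and the estimate turned to 0.016 with gene length offsets. The activity of the HSF1 protein was not measured here.

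**Figure D3:**
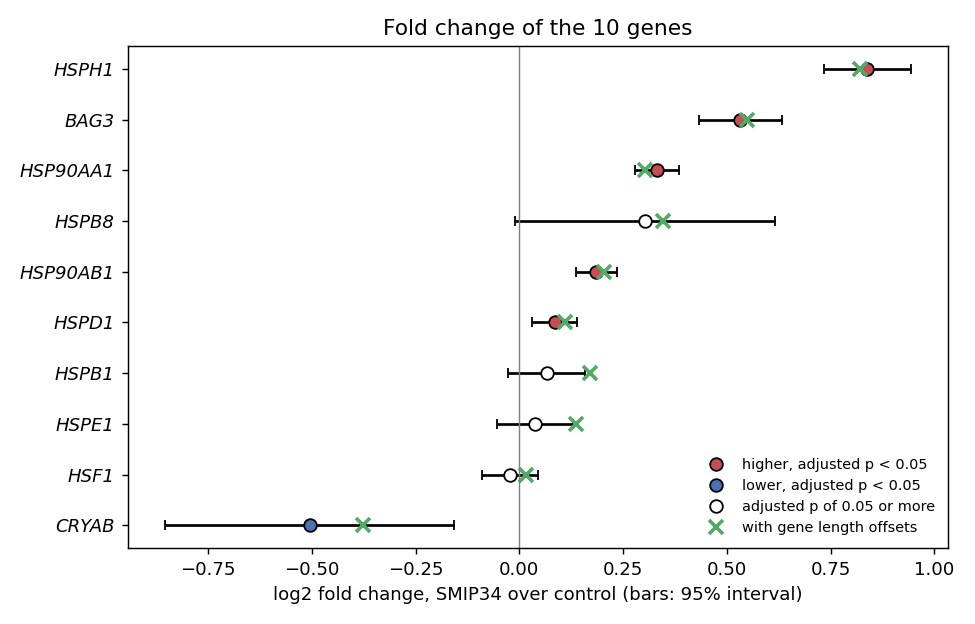
Log2 fold change of SMIP34 over control for the 10 genes, with points for the estimates, bars for 95% intervals, fill for the adjusted p, and crosses for the estimates with gene length offsets. HSPH1 and BAG3 lie furthest to the right, the wide bars of HSPB8 and CRYAB go with few counts, and the crosses of HSPB1 and HSPE1 lie to the right of their points.

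Exon length moved with the fold changes over the whole table. The median log2 fold change was -0.10 in the 1341 genes with the shortest exons (up to 1206 bases) and 0.115 in the 1341 with the longest. HSPE1 (953 bases), HSPB1 (897 bases) and CRYAB (691 bases) belong to the shortest set. Once the trend with length was taken out of each library by offsets, HSPE1 had a log2 fold change of 0.14 (edgeR adjusted p = 0.00222) and HSPB1 of 0.17 (edgeR adjusted p = 0.00438), and both then passed as higher. The same offsets left HSPH1 at 0.82, BAG3 at 0.55, HSP90AA1 at 0.30, HSP90AB1 at 0.20 and HSPD1 at 0.11, all still past the test. The ratios between genes per exon length given above were not corrected for this trend. With the offsets, the log2 fold change of HSPD1 was below that of HSPE1, where without them it was above. Whether the trend with length is technical was not tested.

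Levels of different genes were compared as TPM, counts per exon length scaled to the same total in each library. HSP90AB1 was the most abundant of the 10 in control cells, at 1294 ± 28.2 TPM, followed by HSP90AA1 at 749 ± 19.9, HSPD1 at 611 ± 9.98, HSPE1 at 461 ± 41.5, HSPB1 at 125 ± 4.52, HSF1 at 123 ± 4.87, BAG3 at 25.8 ± 1.44, HSPH1 at 17.0 ± 0.816, CRYAB at 11.6 ± 2.09 and HSPB8 at 3.33 ± 0.384 TPM. HSPB1 and HSF1 overlapped between libraries in both groups, and every other pair of neighbours in this order lay apart. The order was the same with SMIP34. The place of HSPE1 rests on its full exon length, although how reads over bases shared with HSPE1-PHOCN were counted is not settled. The genes called higher stood in places 1 (HSP90AB1), 2 (HSP90AA1), 3 (HSPD1), 7 (BAG3) and 8 (HSPH1), and the largest folds were those in places 8 and 7.

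Added together, the 10 genes took 3485, 3356 and 3427 TPM in control replicates 1, 2 and 3 and 4038, 4052 and 4108 TPM in SMIP34 replicates 1, 2 and 3. Of the difference of 644 TPM between the group means, 39.1% came from HSP90AB1, 37.6% from HSP90AA1 and 10.9% from HSPD1. HSPH1 added 14.9 TPM and BAG3 13.4 TPM. The change with SMIP34 came out more positive in TPM than in TMM-scaled CPM, the scale of the tests, for each of the 10 genes. The summed level of the 10 genes was 18.8% higher in TPM and 13.04% higher in TMM-scaled CPM per kilobase of exon, a scale added after the data were seen. On that scale, HSP90AA1 gave 43.5% of the difference, HSP90AB1 39.7% and HSPD1 8.32%. HSF1 was 3.54% higher in TPM and at -1.465% relative to the controls in TMM-scaled CPM per kilobase. The 2 HSP90 genes held 59.7 ± 0.678% of the summed TPM in controls and 62.4 ± 0.0707% with SMIP34.

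**Figure D4:**
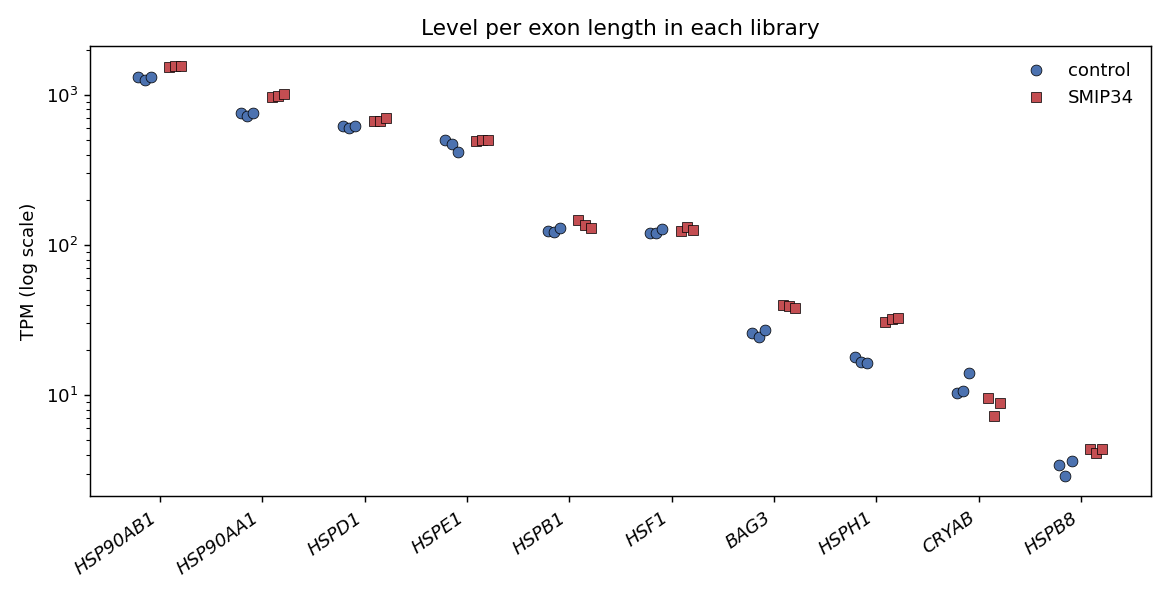
TPM of each of the 10 genes in each library on a log scale, with circles for the 3 control and squares for the 3 SMIP34 libraries and genes ordered by their control mean. Levels run from HSP90AB1 at 1294 TPM to HSPB8 at 3.33 TPM in control cells, and the order is the same in both groups.

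The partners of these genes were read from 9 lists of 105 genes, of which 90 were tested, 37 were called higher and 8 lower, beside 17.4% and 17.2% of all genes tested, the shares against which each list's counts are to be read. Among 21 tested co-chaperones of HSP90, 7 were higher and 2 lower, with a median log2 fold change of 0.053. CHORDC1, a co-chaperone that is itself stress-induced, rose from 50.4 ± 1.78 to 68.7 ± 1.20 CPM, a difference of 0.45 on the log2 scale. AHSA1, which activates the ATPase of HSP90, rose by 0.28, STIP1, which passes clients from HSP70 to HSP90, by 0.27 and FKBP4, which acts with steroid receptors, by 0.22 on the log2 scale. PIH1D1 (-0.13) and RUVBL2 (-0.082), both of a complex that assembles large machines with HSP90, were lower and lost that call with length offsets (-0.056 and -0.019). RUVBL2 also lost it when scaled by library size only (-0.064) and without control replicate 2 or any single SMIP34 replicate. CDC37, the co-chaperone for kinases, had a log2 fold change of -0.013 (edgeR adjusted p = 0.782) and was chosen after its values were seen.

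The HSP90 forms of other compartments parted. HSP90B1, the form of the endoplasmic reticulum, rose from 627 ± 11.4 to 737 ± 10.4 CPM (log2 fold change 0.23, edgeR adjusted p = 6.28e-08), while TRAP1, the mitochondrial form, fell from 275 ± 7.35 to 258 ± 4.65 CPM (-0.095, edgeR adjusted p = 0.0115). TRAP1 did not pass without control replicate 2 (-0.072) or without SMIP34 replicate 2 (-0.082). Among 12 mitochondrial chaperones and proteases, 1 was higher and none lower, with a median of -0.019, and the one was the protease gene YME1L1 (0.090), which did not pass with length offsets (0.061) or without SMIP34 replicate 2 (0.067).

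Of 5 genes of the HSP110 family and other factors that exchange the nucleotide of HSP70 type chaperones, 3 were higher, all relatives of HSPH1. HSPA4L rose by 0.48 on the log2 scale, from 15.5 ± 0.141 to 21.5 ± 1.81 CPM, HYOU1, which works in the endoplasmic reticulum, by 0.35 and HSPA4 by 0.16. HSPH1 at 0.84 thus had the largest estimate of these relatives, and the differences between them were not tested. In the list of the cytosolic chaperonin and prefoldin, which fold actin and tubulin, 6 of 14 were higher and 3 lower (median 0.068). TCP1 rose by 0.27, PFDN2 by 0.16, CCT6A by 0.10 and CCT2 by 0.097, and PFDN5 (-0.25) and PFDN1 (-0.12) fell. The remaining lower gene, PFDN6 (-1.34), chosen after its values were seen, was at 0.309, 0.644 and 2.65 CPM in control replicates 1, 2 and 3 and overlapped between the groups, and it is annotated at 5 places. The call of PFDN1 was lost with length offsets (-0.054) and without control replicate 2 (-0.095) or SMIP34 replicate 3 (-0.12), that of PFDN2 without control replicate 3 (0.098), and that of CCT2 without SMIP34 replicate 2 (0.082) or 3 (0.092).

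Among 9 tested BAG proteins and partners of BAG3 in selective autophagy, 4 were higher and 1 was lower (median 0.14). SQSTM1, the autophagy receptor that binds ubiquitin, rose from 1035 ± 22.9 to 1468 ± 2.78 CPM, a difference of 0.50 on the log2 scale, close to that of BAG3. BAG1, another nucleotide exchange factor of HSP70, fell from 118 ± 1.32 to 96.2 ± 2.55 CPM (-0.30, edgeR adjusted p = 1.52e-07), against the direction of BAG3. BAG6 had a log2 fold change of 0.67, but it is annotated on several haplotypes of chromosome 6 and was at 15.4, 8.92 and 10.4 CPM in SMIP34 replicates 1, 2 and 3, so its count is uncertain. BAG2, an inhibitor of the ubiquitin ligase CHIP, chosen after its values were seen, rose from 0.516 to 1.04 CPM (1.01). Of 8 other small heat shock genes, only HSPB11 was abundant enough to test, with a log2 fold change of 0.020 (edgeR adjusted p = 0.809, chosen after its values were seen).

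Of 12 tested heat shock factors and regulators of HSF1, 4 were higher and 1 was lower (median -0.055). HSF2, the relative of HSF1 that binds the same element, rose from 18.4 ± 0.355 to 22.7 ± 0.663 CPM, a difference of 0.30 on the log2 scale (edgeR adjusted p = 0.000811). SIRT1, a deacetylase that acts on HSF1, rose by 0.39, and the acetyltransferase genes EP300 and CREBBP by 0.37 and 0.17. CREBBP did not pass with length offsets (0.043), without control replicate 2 (0.12) or without SMIP34 replicate 3 (0.14). EEF1A1, an elongation factor also tied to HSF1 activation, was lower (-0.12).

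Among 14 tested other genes that HSF1 is known to induce, 11 were higher and none lower (median log2 fold change 0.22). This was the largest share of increases of the 9 lists. The lists were chosen with earlier results of these data known, so that ranking is a description and not a test. DNAJB1, the HSP40 that partners inducible HSP70, rose by 0.52 on the log2 scale, from 145 ± 4.33 to 208 ± 1.41 CPM, close to BAG3. The HSP70 genes HSPA1A, HSPA6 and HSPA1B rose from 0.428 ± 0.223 to 6.93 ± 3.33, from 1.18 ± 0.209 to 11.7 ± 0.415 and from 4.35 ± 0.523 to 14.2 ± 3.13 CPM. These were larger folds than any of the 10 genes had, from low levels. HSPA1A varied widely, at 10.2, 7.03 and 3.56 CPM in SMIP34 replicates 1, 2 and 3. HSPA1A and HSPA1B are near-identical copies on several haplotypes whose reads cannot be told apart with certainty.

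**Figure D5:**
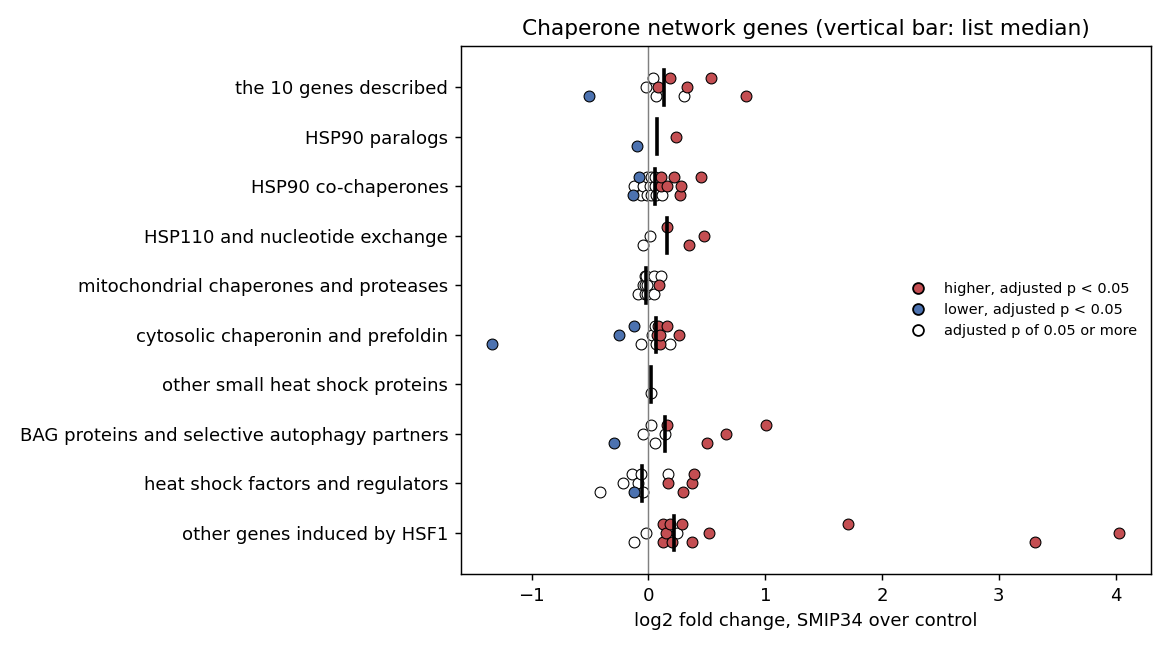
Log2 fold change of SMIP34 over control of every tested gene in the 10 lists, 1 point per gene, filled red where higher and blue where lower at an adjusted p under 0.05 and open otherwise, with a vertical bar at each list median. The list of other genes induced by HSF1 has its median at 0.22 and 3 points far to the right, while the mitochondrial list lies around 0 (median -0.019).

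Among the 34 genes of the whole table with a 3-unit element in the 250 bases before the start, 11 (32.4%) were higher and 2 (5.88%) lower, beside 19.1% and 17.4% of all 10913 genes with a promoter sequence. Their median log2 fold change was 0.016, beside 0.0041 over all of these genes. The 34 include HSPH1, HSP90AA1 and HSPD1, called higher, and CRYAB, called lower, so these shares rest partly on the genes described here. The calls of HSPD1 and CRYAB did not hold in every alternative. Of the 861 genes with a 2-unit match, 20.1% were higher and 19.5% lower.

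By the root mean square difference of centred log2 CPM over the 6 libraries, among genes averaging 10 CPM or more, those nearest in profile to HSPH1 were CSF1 (0.048), NFKBIA (0.063) and DHRS2 (0.067). Those nearest to BAG3 were ZC3HAV1 (0.026), ICAM1 (0.031) and RLF (0.032). CRYAB lay below that 10 CPM limit itself, on 53 to 101 counts per library, and whether counting noise set its distances was not tested. It had no neighbour as close, with ULBP1 (0.098), THBS3 (0.12) and FAM165B (0.13) as the nearest. With 6 libraries in 2 groups, this likeness mostly reflects an equal difference between the groups.

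As a check of the samples, PELP1 mRNA was at 133, 146 and 138 CPM in control replicates 1, 2 and 3 and 158, 159 and 151 CPM in SMIP34 replicates 1, 2 and 3. PELP1 mRNA was thus called higher (log2 fold change 0.16, edgeR adjusted p = 0.000746), which does not bear on the protein that SMIP34 acts on. The 6 epithelial markers EPCAM, KRT8, KRT18, KRT19, CDH1 and PAX8 were all present, with summed levels of 3211 to 3311 CPM in controls and 3049.5 to 3058.5 CPM with SMIP34, and 3 of the 6 were lower (17.2% of all genes tested were). The sums were 5.20 to 6.50 and 6.33 to 6.66 CPM over 6 fibroblast markers (LUM at 0 in all libraries, and COL1A1 higher, from 2.96 to 4.19 CPM), 0.866 to 1.49 and 1.16 to 2.23 CPM over 6 leukocyte markers (CD3E and MS4A1 at 0) and 0.414 to 0.876 and 0.137 to 0.462 CPM over 5 endothelial markers. The chi-square per gene was 1.89 to 3.26 between replicates, above counting noise, and 8.75 to 13.2 between groups.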

How the data were processed

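RNA-seq libraries of 3 control and 3 SMIP34-treated HEC-1-A samples, grouped by their labels, were used, and none was left out. The authors deposited estimated counts per gene, made with featureCounts 1.5.0-p1 per the file headers, over the exons of the UCSC hg19 annotation, by strand, above a minimum mapping quality of 2 and with multi-mapped reads as fractions; no normalization had been applied. The submitters' processing notes name HISAT2, while the study's methods name tophat2 and HTSeq, and the sources name library kits of different makers.

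Counts were rounded, filtered with filterByExpr (13408 genes left) and compared between the groups in edgeR 4.0.16 (R 4.3.3) by its newer quasi-likelihood method with TMM scaling, at a Benjamini-Hochberg adjusted p of 0.05 over the whole table. Standard errors were derived from the F statistic, and log2 CPM used a prior count of 2. Intervals and SDs rest on 3 libraries a group. The 10 genes and the lists were chosen with earlier results of these data known. From each list, up to 4 called genes in each direction with the largest changes and a mean of at least 1 CPM were named. Values of some single genes are not given. The nearest genes in profile were sought for the 3 called members with the largest changes. Alternatives were other scalings and filters, DESeq2 1.42.0, limma voom 3.58.1, the legacy method, the replicate number as a block, loess offsets on exon length (span 0.3), and leaving out each library. On simulated data for this comparison (13311 genes), 189 of 200 changed genes were recovered. The sizes of those changes are not given here, so this share is not a measure of recovery for small changes. Plots used matplotlib 3.10.9 (Python 3.11.15).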

Additional observations from a re-analysis of the deposited data

How the results depend on the processing

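The 5 increases among the 10 genes kept their direction in all 16 alternatives, and HSPH1, BAG3, HSP90AA1 and HSP90AB1 passed in each, with log2 fold changes of 0.80 to 0.88, 0.50 to 0.56, 0.30 to 0.35 and 0.17 to 0.20. The number of the 10 genes that were lower went from 1 to 0 with DESeq2 and with length offsets, and was 0 to 1 with a library left out. HSF1 (0.016 with length offsets) and HSPE1 (-0.045 to 0.097 with a library left out, the former without control replicate 3) changed sign, neither past the test in either fit. With library size only, 1 HSP90 co-chaperone was lower and 3 mitochondrial genes were higher. With length offsets, 0 HSP90 co-chaperones, 1 mitochondrial gene and 2 BAG list genes were lower, while 10 chaperonin and prefoldin genes and 1 other small heat shock gene were higher. The higher chaperonin and prefoldin genes, 6 in the main comparison, numbered 4 with upper quartile scaling, 4 with the replicate block and 9 with library size only. With a library left out, the lower genes numbered 1 to 2 among HSP90 co-chaperones, 0 to 1 among HSP90 paralogs and 1 to 3 in the chaperonin list. Deviations of libraries with the same number correlated at -0.028, 0.033 and -0.011 between the groups, and 1 of the 3 control libraries correlated best with its own number, so no pairing by number was assumed. The replicate block gave 4432 genes past the adjusted p in place of 4645, the same 5 higher and 1 lower member by count, and an adjusted p of 0.039 for HSPD1. CRYAB and HSPB8, with the fewest counts, have the widest intervals, and that of HSPB8 (-0.011 to 0.62) holds both no change and an increase up to its upper bound.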
